A study of Mus musculus with 8 samples.

Results

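The 28 genes described here encode transcription factors that start or maintain embryonic cell fates and carry no homeobox. They were chosen by symbol from the Ensembl identifiers of a deposited table of 54418 genes, and all 28 were found. The rule uses no measured value, but the genes were chosen with earlier results of these data known. Of these, 14 belong to the basic helix-loop-helix (bHLH) class, and the others to the Zic zinc finger, Ebf, COUP-TF, forkhead and T-box families, with Wt1 on its own. Of the 28 genes, 7 held enough counts to be tested (25.0%, against 29.4% of all genes in the table and 60.0% of its protein-coding genes), and 5 had no count in any library.

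The RNA came from melanocyte stem cells, the reserve of the hair follicle from which pigment cells are renewed, sorted from mouse dorsal skin at postnatal day 21. The 4 control libraries came from mice with floxed Bmi1 on both alleles, Dct-rtTA and TRE-H2B-GFP. The 4 Bmi1-deleted libraries had the same alleles and Tyrosinase-Cre, a recombinase driven from a promoter of pigment cells. All mice had a mixed C57Bl-6;129Sv strain background and ate doxycycline pellets, which turn on the histone-GFP reporter in cells that use the Dct promoter. Live cells that were positive for GFP and not autofluorescent were collected. No label says whether the replicates were separate animals, so the p-values measure the spread between these samples, which may be technical.

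Polycomb repressive complexes keep regulators of foreign cell fates switched off by modifying and compacting their chromatin. Bmi1 is a subunit of Polycomb repressive complex 1, and the developmental regulators it helps to silence typically have promoters rich in CpG, the dinucleotide C followed by G. Factors of the bHLH class bind DNA as dimers, usually with a broadly expressed E protein, and Id proteins block that pairing. The comparison asked whether these 28 genes were used more when Bmi1 was deleted in the pigment lineage.

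Libraries held 8882656 to 10368174 counts. Bmi1 itself had 796, 743, 705 and 859 counts in control libraries 1 to 4 and 627, 713, 626 and 607 in Bmi1-deleted libraries 1 to 4. Its log2 change in counts was −0.26 (SE 0.12, edgeR adjusted p = 0.607). In the deposited TPM, Bmi1 stood at 30.4 ± 6.14 in the controls and 13.4 ± 4.84 after deletion (SD, n = 4; −1.17 on the log2(TPM + 1) scale, limma adjusted p = 0.461). The groups did not overlap in TPM or in counts scaled by library size. Raw counts overlapped, as Bmi1-deleted library 2 had 713 and control library 3 had 705. Which exons the deletion removes was not given in the sources used here. Cdkn2a, the classic target of Bmi1 repression, had 0 counts in every control library and 85, 50, 38 and 46 in the Bmi1-deleted ones, and it was higher (edgeR adjusted p = 0.00736). Both groups expressed the pigment cell markers, whose 11 genes summed to 8723 to 14689 CPM (normalised read counts, scaled by library size) in the controls and to 4913 to 10393 CPM after deletion. None of the 11 passed the edgeR test, 0 were higher and 7 lower at an unadjusted p under 0.05, and 8 were lower with the replicate number as a block. Genes listed as markers of dermal fibroblasts were present too, with collagen genes making up 91.4% to 94.4% of their sum. Their values stand below beside those of the members.

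Promoter sequences are shown for the gene with the largest change (Ebf3), for 3 others of the Zic and Ebf families (Ebf1, Zic1 and Zic5) and for Neurog1, a gene that stayed near 0, so that the CpG content of genes that were read and not read can be compared. The sequences are from RefSeq on GRCm38.p6 (mm10), lie upstream of a RefSeq start and are written 5′ to 3′ on the gene's strand. Bases that GENCODE M21 places in an exon were left out, and each CpG is in capitals.
Ebf3, chr7:137314446-137314695, minus strand: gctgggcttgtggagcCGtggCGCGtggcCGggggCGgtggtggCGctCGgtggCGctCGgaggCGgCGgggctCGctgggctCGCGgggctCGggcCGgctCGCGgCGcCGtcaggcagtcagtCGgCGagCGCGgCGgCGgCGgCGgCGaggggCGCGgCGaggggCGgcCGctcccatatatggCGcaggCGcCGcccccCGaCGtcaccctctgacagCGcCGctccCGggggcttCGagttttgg
Ebf1, chr11:44619978-44620227, plus strand: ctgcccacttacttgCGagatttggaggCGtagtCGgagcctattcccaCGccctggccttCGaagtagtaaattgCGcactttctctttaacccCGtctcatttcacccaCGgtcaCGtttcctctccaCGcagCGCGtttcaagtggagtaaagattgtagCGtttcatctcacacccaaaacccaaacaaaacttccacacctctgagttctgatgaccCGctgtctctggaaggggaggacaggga
Zic1, chr9:91365811-91366018, minus strand: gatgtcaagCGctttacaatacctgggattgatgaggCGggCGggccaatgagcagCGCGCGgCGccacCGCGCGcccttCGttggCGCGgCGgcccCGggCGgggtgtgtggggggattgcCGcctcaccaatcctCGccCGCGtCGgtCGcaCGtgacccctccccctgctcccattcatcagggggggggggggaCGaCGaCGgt
Zic5, chr14:122465678-122465908, minus strand: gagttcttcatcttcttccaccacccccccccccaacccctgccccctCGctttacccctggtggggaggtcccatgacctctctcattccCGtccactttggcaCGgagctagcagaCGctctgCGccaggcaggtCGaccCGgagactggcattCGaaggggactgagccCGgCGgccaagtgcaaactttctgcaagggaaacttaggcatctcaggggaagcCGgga
Neurog1, chr13:56252181-56252430, minus strand: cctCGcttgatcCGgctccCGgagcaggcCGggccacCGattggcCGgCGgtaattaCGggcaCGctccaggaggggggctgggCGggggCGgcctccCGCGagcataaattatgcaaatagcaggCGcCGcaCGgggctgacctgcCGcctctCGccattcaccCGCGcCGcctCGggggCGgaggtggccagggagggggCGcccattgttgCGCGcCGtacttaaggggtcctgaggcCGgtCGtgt

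The Ebf3 stretch holds 43 CpG and the Neurog1 stretch 29, so a gene counted mostly after deletion and a gene that stayed near 0 both lie behind CpG-rich sequence. Zic1 has 26 CpG, Ebf1 14 and Zic5 11. The Ebf1 stretch lies before a RefSeq start at 44620228, inside the GENCODE gene model, which begins at 44617317. The window of an earlier RefSeq start, at 44618100, had 9 CpG and lay wholly in exons, so it is not shown. RefSeq windows were at hand for 21 of the 28 genes, 25 windows in all, because some genes have several starts. Over the 250 bases before each start, the members had a median of 14 CpG and a median ratio of observed to expected CpG of 0.73, against 6 CpG and 0.37 over all 32851 windows. A ratio above 0.6 together with a GC content above 50% was found in 14 of the 25 member windows and in 30.8% of all windows. The 7 windows of tested members had a median ratio of 0.85 and the 18 windows of the others 0.72, and the ranges overlapped. Not every member window was rich in CpG, the lowest being that of Nr2f2, with 1 CpG and a ratio of 0.064. This was the only Nr2f2 window at hand, and GENCODE M21 places all of it in exons. It may not stand for other starts of the gene, as the Nr2f1 windows had ratios of 0.208 and 0.741. The E-box, CANNTG, which bHLH factors bind and which reads the same on both strands, occurred in 13 of 25 member windows and in 66.2% of all windows. The letters TATAAA, searched on both strands, occurred in 3 member windows and in 12.4% of all windows. These matches are descriptions of the sequence and not binding sites.

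**Figure D1:**
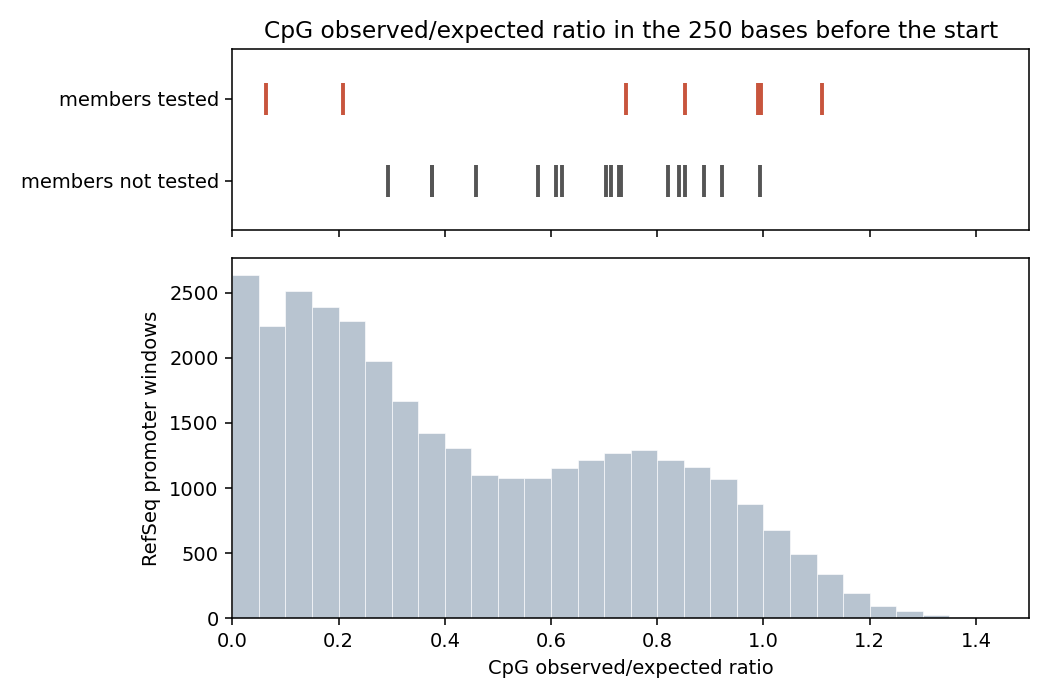
Ratio of observed to expected CpG in the 250 bases before each RefSeq start, for the windows of members that were tested or not tested (upper panel, 1 line per window) and as a histogram of all RefSeq promoter windows (lower panel, number of windows). Most member windows lie to the right of the all-window median of 0.37, and the tested and untested members overlap.

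Most of the 28 genes stayed silent or nearly so in both genotypes. The genes of oligodendrocytes Olig1 and Olig2, the neural bHLH gene Bhlhe23, the heart and placenta factor Hand1 and the ovary factor Foxl2 had 0 counts in all 8 libraries. Among protein-coding genes 13.5% had no count, against 5 of these 28 (17.9%). A count of 0 allows up to 3 counts per library, or 0.298 to 0.340 CPM, by counting error alone.

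A further 16 genes had counts but too few to be tested. Of these, 3 were counted in control libraries alone, 5 in Bmi1-deleted libraries alone and 8 in both. The 21 untested genes together held 23, 31, 9 and 15 counts in control libraries 1 to 4 and 41, 73, 22 and 27 in Bmi1-deleted libraries 1 to 4, and the groups overlapped. Within each replicate number the Bmi1-deleted sum was the higher, by 1.80 to 2.54 times in CPM, which describes a few counts from few genes. Of the 21, those with a count were 7, 5, 3 and 5 in control libraries 1 to 4. In Bmi1-deleted libraries 1 to 4 they were 9, 6, 6 and 3. Hand2 held 36 and Sim2 18 of the 73 counts of Bmi1-deleted library 2. The 27 counts of library 4 came from Hand2, Sim1 and Sim2 alone.

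The proneural genes, which start the differentiation of neurons and, for Neurog3, of endocrine cells of the pancreas, stayed at this level. Neurog1 and Neurog3 had 1 count each, both in Bmi1-deleted library 1. Neurod1 had 3 counts, in Bmi1-deleted library 2. Atoh1, the factor of the touch-sensing Merkel cells of skin, had 4 counts, in Bmi1-deleted library 1. Neurog2 had 0, 12, 7 and 1 counts in the controls and 7, 0, 5 and 0 after deletion, with no separation.

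Among the bHLH factors of mesoderm, Hand2, a factor of heart and limb, had 2, 0, 0 and 1 counts in the controls and 0, 36, 1 and 7 after deletion. The 36 counts of library 2 were the most that any untested member reached in a library, and Bmi1-deleted library 1 had none. Hand2os1, a non-coding gene that overlaps Hand2 on the opposite strand, had 0 counts in the controls and 7, 0, 2 and 6 after deletion. Whether reads were assigned by strand was not given in the sources used here, so reads of the overlap cannot be assigned with certainty. Tcf21, a factor of epicardial and kidney mesenchyme, had 4 and 1 counts in control libraries 1 and 2 and none elsewhere. Of the Sim genes, which encode bHLH-PAS factors, Sim2 had 18 and 9 counts in Bmi1-deleted libraries 2 and 4, the same 2 libraries in which Hand2 was highest, and 2 counts in control library 2. Sim1, needed for hypothalamic neurons, had 2, 9, 1 and 1 counts in the controls and 4, 7, 2 and 11 after deletion.

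The factors of other organs gave no more. The kidney and gonad factor Wt1 had 7 counts, all in control library 2. Foxa1, a pioneer factor that opens chromatin in endoderm, had 12 of its 15 counts in Bmi1-deleted library 1, and its relative Foxa2 had 2 counts in Bmi1-deleted library 1 and 1 in library 3. Eomes, a T-box factor of early embryo and trophoblast, had 4, 0, 1 and 10 counts in the controls and 1 count after deletion.

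**Figure D2:**
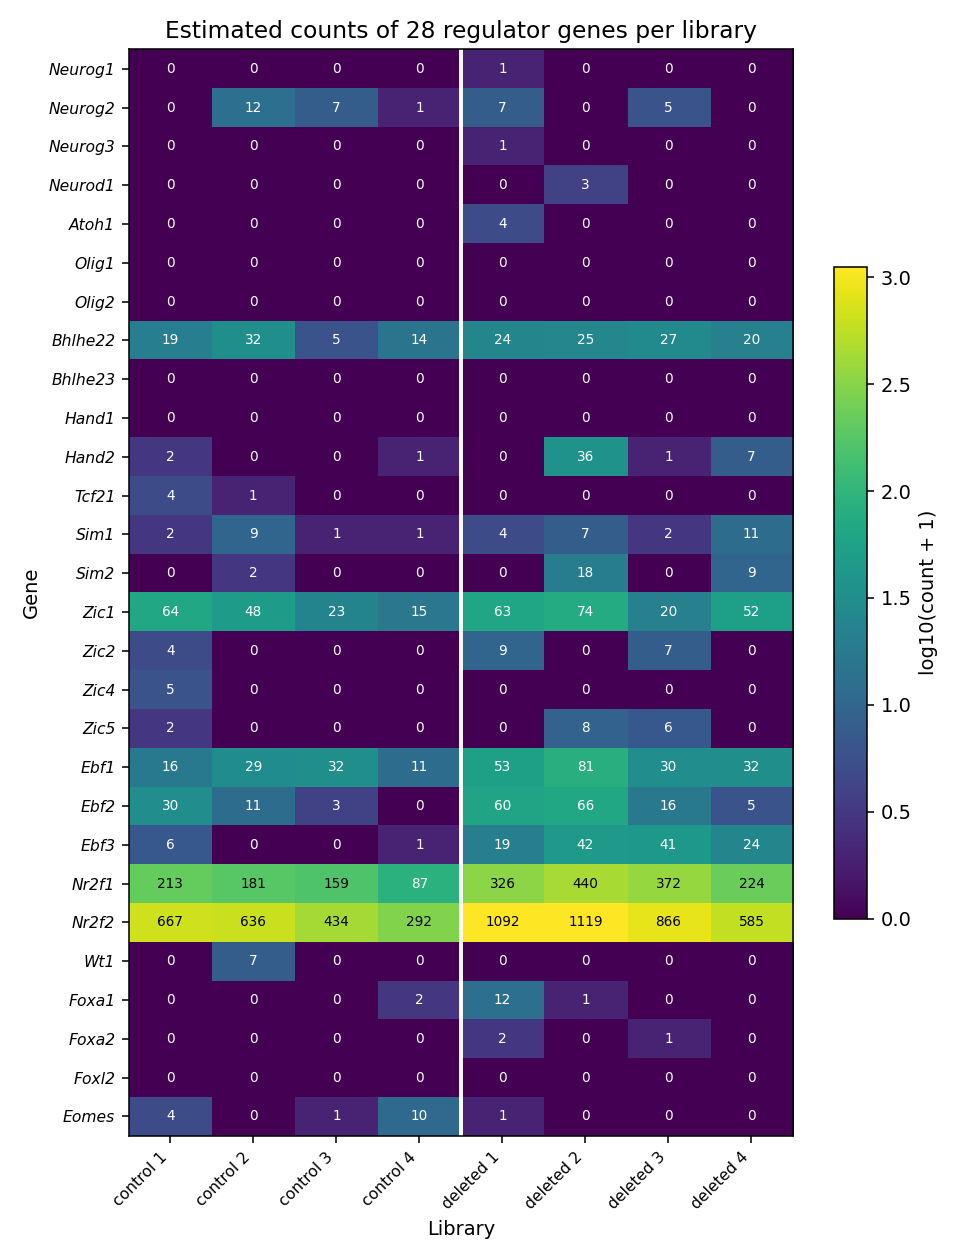
Estimated counts of the 28 genes (rows) in the 4 control and 4 Bmi1-deleted libraries (columns), with the count printed in each cell and the colour giving log10(count + 1). Most rows are at or near 0 in all 8 columns, and the rows of Nr2f1 and Nr2f2 hold most of the counts.

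The 7 tested genes were Bhlhe22, Zic1, the 3 Ebf genes Ebf1, Ebf2 and Ebf3, and both COUP-TF genes, Nr2f1 and Nr2f2. None passed the test across all 16011 tested genes (edgeR quasi-likelihood, adjusted p under 0.05), in which 0.0874% of genes were called higher and 0.00625% lower. All 7 estimates were above 0, as were 50.7% of all tested genes, with a median log2 change of 1.10 against 0.01 for all. The count filter can keep a gene through the group in which it is high, so these 7 do not stand for the 28. At an unadjusted p under 0.05 there were 4 higher, Ebf1, Ebf3, Nr2f1 and Nr2f2, and 0 lower, where the background was 4.82% and 3.45%. The groups did not overlap for Ebf3 and Nr2f1, both higher, where the background was 2.79% higher and 2.39% lower. With the replicate number as a block, Nr2f1 and Nr2f2 passed and were higher (background 1.71% higher and 0.706% lower). No label says that same-numbered libraries are pairs. After centring by genotype they correlated at 0.14 to 0.224, and libraries with other numbers at up to 0.243. DESeq2, a second count model without the block, called Ebf3, Nr2f1 and Nr2f2 higher (background 0.687% higher and 0.3% lower), as did edgeR without a filter on low counts (0.741% and 0.346%). In replicates 1 and 2 alone, Nr2f2 passed (edgeR, background 0.5% and 0.44%), and limma-voom called no member (0.0999% and 0.025%).

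Nr2f2 encodes COUP-TFII, a nuclear receptor of veins, lymphatic vessels and mesenchyme. It was the most abundant of the 28 genes. Nr2f2 (ENSMUSG00000030551, mm10 chromosome 7, 70351944 to 70366735, minus strand) stood at 70.9, 65.5, 46.4 and 33.0 CPM in control libraries 1 to 4 and at 120.5, 111, 96.3 and 66.3 CPM in Bmi1-deleted libraries 1 to 4. Each Bmi1-deleted library was above the control library of its number, but Bmi1-deleted 4 was below control 1, so the groups overlapped. The mean was 54.0 ± 17.5 CPM in the controls and 98.6 ± 23.7 after deletion (SD, n = 4), a ratio of 1.83. The log2 change was 0.87 (SE 0.25, edgeR adjusted p = 0.331), and 0.89 with the replicate block (SE 0.12, edgeR adjusted p = 0.00102). With the block it passed in all 4 fits that each left out 1 pair (highest edgeR adjusted p = 0.0221).

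Nr2f1 encodes COUP-TFI, the close relative known from neural crest and cortex. Nr2f1 (ENSMUSG00000069171, chromosome 13, 78188973 to 78199757, minus strand) stood at 22.6, 18.6, 17.0 and 9.84 CPM in the controls and at 36.0, 43.7, 41.4 and 25.4 CPM after deletion. All Bmi1-deleted libraries were above all control libraries. The mean was 17.0 ± 5.34 CPM in the controls and 36.6 ± 8.15 after deletion (SD, n = 4), a ratio of 2.15. The log2 change was 1.10 (SE 0.25, edgeR adjusted p = 0.142), and 1.13 with the block (SE 0.19, edgeR adjusted p = 0.00398). With the block and a pair left out it passed in 3 of 4 fits, and not without the libraries numbered 2 (edgeR adjusted p = 0.0605).

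The COUP-TF pair took 81.2% to 89.2% of all counts of the 28 genes in a library. In TPM, which divide by transcript length and so allow levels of different genes to be compared, Nr2f2 stood at 6.45 ± 3.85 in the controls and 11.4 ± 3.51 after deletion, and Nr2f1 at 2.42 ± 1.55 and 3.71 ± 0.930 (SD, n = 4). Nr2f2 was 2.59 to 4.09 times Nr2f1 in TPM in each of the 8 libraries. By control TPM, Nr2f2 stood at percentile 68.2 of the tested genes and Nr2f1 at percentile 45.3, while Bhlhe22, Zic1 and the Ebf genes stood at percentile 8.93 or lower. In TPM control library 2, with 4.33, was above 3 of the 4 Bmi1-deleted libraries for Nr2f1, so the separation seen in CPM was not there.

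Both COUP-TF genes have a non-coding gene that starts on the opposite strand and overlaps them. A830082K12Rik, beside Nr2f1, stood at 10.5 ± 3.19 CPM in the controls and 16.7 ± 3.98 after deletion (SD, n = 4; log2 change 0.66, SE 0.28, edgeR adjusted p = 0.568). B130024G19Rik, beside Nr2f2, stood at 2.38 to 5.84 CPM in the controls and at 5.33 to 10.03 CPM after deletion, with overlapping groups (log2 change 1.02, SE 0.40, edgeR adjusted p = 0.514). Neither passed with the block. The kit marks strand, but whether reads were assigned by strand was not given in the sources used here, so reads of the overlapping part cannot be assigned with certainty.

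Ebf3 showed the largest difference of the tested members. The Ebf factors (early B cell factors) act in B cells, fat cell precursors, mesenchyme and neurons. Ebf3 (ENSMUSG00000010476, chromosome 7, 137193673 to 137314445, minus strand) had 6, 0, 0 and 1 counts in control libraries 1 to 4 and 19, 42, 41 and 24 in Bmi1-deleted libraries 1 to 4. Every Bmi1-deleted library was above every control library, and the controls were at or near 0. The mean was 0.188 ± 0.305 CPM in the controls and 3.39 ± 1.17 after deletion (SD, n = 4), a ratio of 18.0 that rests on 7 control counts. The log2 change was 4.08 (SE 1.04, edgeR adjusted p = 0.216), 4.56 with the block (SE 1.22, edgeR adjusted p = 0.0635) and 4.17 in DESeq2 (SE 0.97, DESeq2 adjusted p = 0.00408). Without control library 1, which held 6 of the 7 control counts, it was 6.10 (edgeR adjusted p = 0.0575).

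The TPM of Ebf3 did not follow its counts. Bmi1-deleted libraries 2 and 3, with 42 and 41 counts, had 1.63 and 0.909 TPM, while library 4, with 24 counts, had 0.244 and library 1, with 19 counts, had 0.129. TPM depend on the transcript to which reads are assigned, and transcripts of Ebf3 were not counted separately in the tables. The groups did not overlap in TPM either, the highest control value being 0.0614.

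Ebf1, the B cell and mesenchyme member (ENSMUSG00000057098, chromosome 11, 44617317 to 45008091), stood at 1.70, 2.99, 3.42 and 1.24 CPM in the controls and at 5.85, 8.05, 3.34 and 3.63 CPM after deletion. Bmi1-deleted libraries 1 and 2 were high, while library 3 was below control 3. The log2 change was 1.15 (SE 0.52, edgeR adjusted p = 0.582). Ebf2, a factor of brown fat precursors (ENSMUSG00000022053, chromosome 14, 67233292 to 67430918), stood at 3.19, 1.13, 0.321 and 0 CPM in the controls and at 6.62, 6.56, 1.78 and 0.567 CPM after deletion. In each pair the Bmi1-deleted library was the higher, and within each group libraries 1 and 2 were above 3 and 4, so the groups overlapped widely (log2 change 1.73, SE 1.05, edgeR adjusted p = 0.746). Paralogs of the Ebf family share stretches of sequence, and reads that match several could be divided between them.

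The Zic genes encode zinc finger factors of the dorsal neural tube and the neural crest border, from which melanocytes descend. Zic1 (ENSMUSG00000032368, chromosome 9, 91358058 to 91365810) was the only Zic gene with enough counts. It stood at 6.80, 4.94, 2.46 and 1.70 CPM in the controls and at 6.95, 7.35, 2.22 and 5.90 CPM after deletion. The groups overlapped, and Bmi1-deleted library 3 was below 3 of the 4 controls (log2 change 0.49, SE 0.53, edgeR adjusted p = 0.898). Its neighbour Zic4, which is read in the opposite direction from a RefSeq start 3204 bases away and whose gene model overlaps that of Zic1, had 5 counts, all in control library 1. Zic2 had 4 counts in control library 1 and 9 and 7 in Bmi1-deleted libraries 1 and 3. Zic5, the neighbour of Zic2, had 2 counts in control library 1 and 8 and 6 in Bmi1-deleted libraries 2 and 3. No library was high for all Zic genes, and Zic1 was read in all 8 libraries while its neighbour was not.

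Bhlhe22, a bHLH repressor of retinal and cortical neurons (ENSMUSG00000025128, chromosome 3, 18054174 to 18057517), was the 1 bHLH member of the 28 with enough counts. It stood at 2.02, 3.30, 0.535 and 1.58 CPM in the controls and at 2.65, 2.48, 3.00 and 2.27 CPM after deletion. The highest and the lowest library were both controls (log2 change 0.48, SE 0.65, edgeR adjusted p = 0.920).

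**Figure D3:**
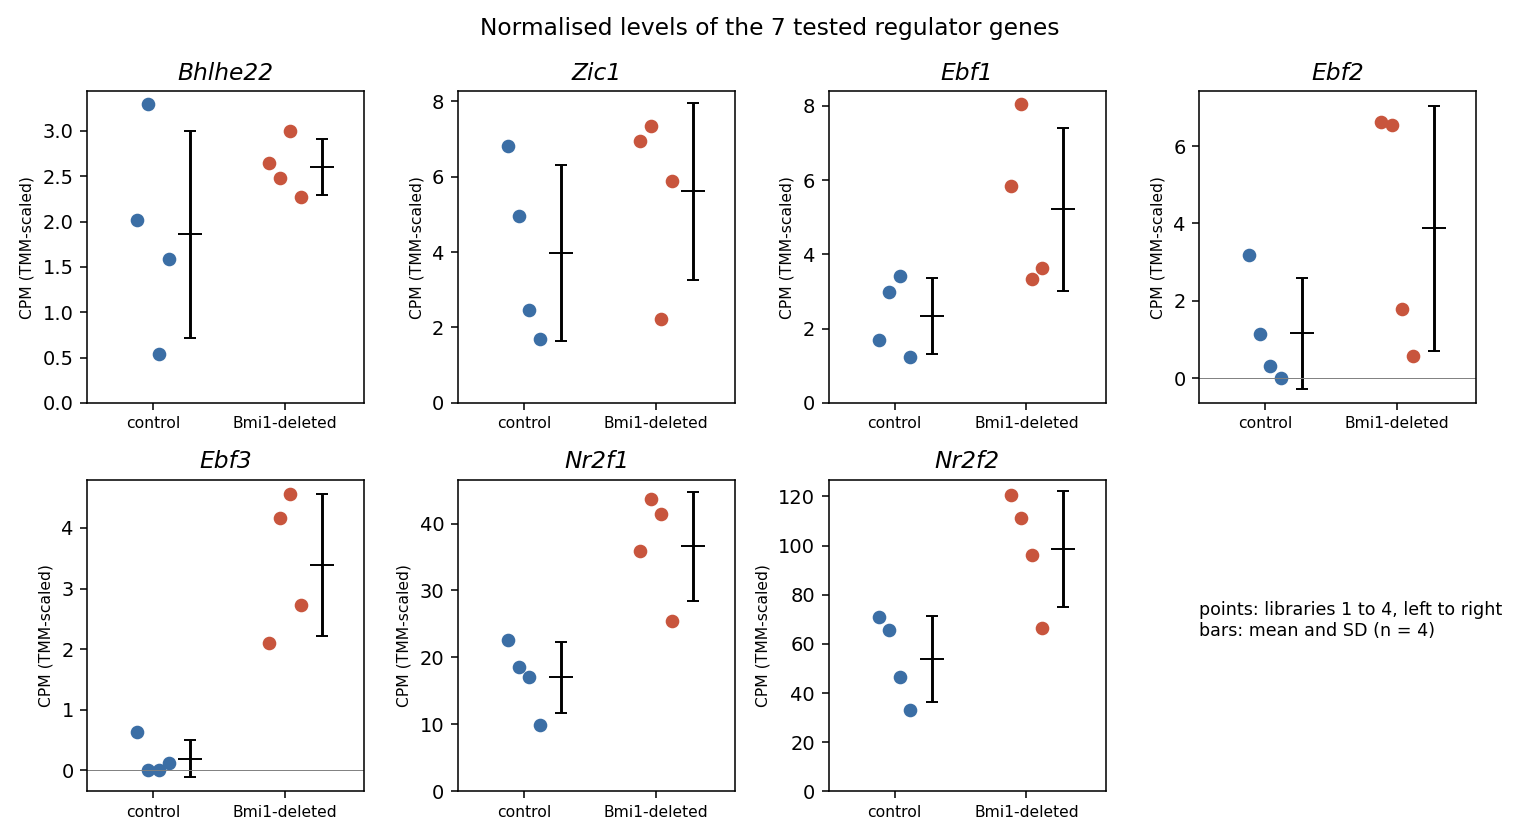
Normalised level in CPM (vertical axis) of the 7 tested genes in control (blue) and Bmi1-deleted (red) libraries, with 1 point per library and the mean and SD of 4 libraries beside them. The groups are apart for Ebf3 and Nr2f1, and overlap for the other 5 genes.

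The fibroblast markers, listed for another skin cell type that also uses Ebf and COUP-TF factors, moved with the same libraries in sum. Whether the sorted cells held fibroblasts was not tested. Of 19 markers 16 were tested, 15 had an estimate above 0, and 0 passed (10 higher and 1 lower at an unadjusted p under 0.05), while 9 were higher with the block. Their summed level was 9841, 7966, 6480 and 5606 CPM in control libraries 1 to 4 and 20067, 17094, 12004 and 9480 CPM in Bmi1-deleted libraries 1 to 4. No marker of the list was at 0 in all libraries. In bulk RNA, more cells of a type and more RNA per cell cannot be told apart. Markers of Schwann cells were also higher with the block (6 of 10 tested), and their sum was 2243 to 4133 CPM in the controls and 4073 to 5461 CPM after deletion. The endothelial sum was 33.1 to 68.2 CPM in the controls and 58.3 to 154.7 CPM after deletion. The part of Schwann and endothelial cells in the members' values was not tested.

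The 8 collagen genes of the list made up 91.4% to 94.4% of this sum in each library. Other markers did not all follow it: in Bmi1-deleted library 4, Dcn stood at 1.47 CPM, Pdgfra at 1.02 and Lum at 0.34, below the 4.98, 2.83 and 4.64 CPM of control library 4.

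The order of the 8 libraries by Nr2f2 was the same as by this collagen-led sum, from Bmi1-deleted 1, the highest, to control 4, the lowest. The members were therefore also expressed per 1000 CPM of fibroblast markers, a measure added after these values were seen. On it Nr2f2 was 7.12 ± 0.954 in the controls and 6.88 ± 0.862 after deletion, and Nr2f1 was 2.26 ± 0.363 and 2.62 ± 0.677 (SD, n = 4), with overlapping groups for both. Ebf3 was 0.0212 ± 0.0306 in the controls and 0.254 ± 0.115 after deletion, and the groups did not overlap (highest control 0.0648, lowest Bmi1-deleted 0.104). The groups overlapped for Ebf1, Ebf2, Zic1 and Bhlhe22.

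The result for Nr2f2 depended on the collagens. By the 11 other markers the libraries ranked as by Nr2f2, except that control 2 stood above Bmi1-deleted 4 and control 4 above control 3. Per 1000 CPM of these markers, Nr2f2 was 92.2 ± 16.3 in the controls and 111.8 ± 5.06 after deletion (SD, n = 4). The groups did not overlap, by a narrow margin (highest control 105.3, lowest Bmi1-deleted 107.4). On this measure Nr2f1 was 29.4 ± 7.42 and 42.2 ± 7.84, with overlap, and Ebf3 0.271 ± 0.400 and 4.04 ± 1.58, without overlap.

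The mean log2 level of 16 fibroblast markers in each library was also used as a covariate. No member passed in the edgeR test (background 0.125% higher and 0.0312% lower), nor did any with the block as well (0.0999% and 0.0687%). Cdkn2a passed with the score alone (edgeR adjusted p = 0.00705) but not with the block as well (edgeR adjusted p = 0.9999). In the fit with both, Cdkn2a, with 0 counts in every control library, had an SE of 18104, so it cannot gauge that fit for other genes. The absence of calls there does not show that the members were unchanged. With the score alone, Nr2f2 had a log2 change of 0.32 (SE 0.18, edgeR adjusted p = 0.583) and Nr2f1 of 0.71 (SE 0.27, edgeR adjusted p = 0.361). Ebf3 kept 3.76 (SE 1.11, edgeR adjusted p = 0.230). Ebf2 turned to −0.70 (SE 0.90, edgeR adjusted p = 0.834), and Zic1 had 0.02. With the block and the score together the estimates were not smaller than with the block alone, but their errors were wide. In that fit Nr2f2 had 1.08 (SE 0.30), Nr2f1 1.51 (SE 0.48), Ebf3 5.06 (SE 3.04), Ebf2 6.81 (SE 3.25) and Zic1 2.12 (SE 1.17), so the sign of Ebf2 depended on the block. The covariate itself was 6.09 to 6.78 in the controls and 6.31 to 7.83 after deletion, on the log2 CPM scale.

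**Figure D4:**
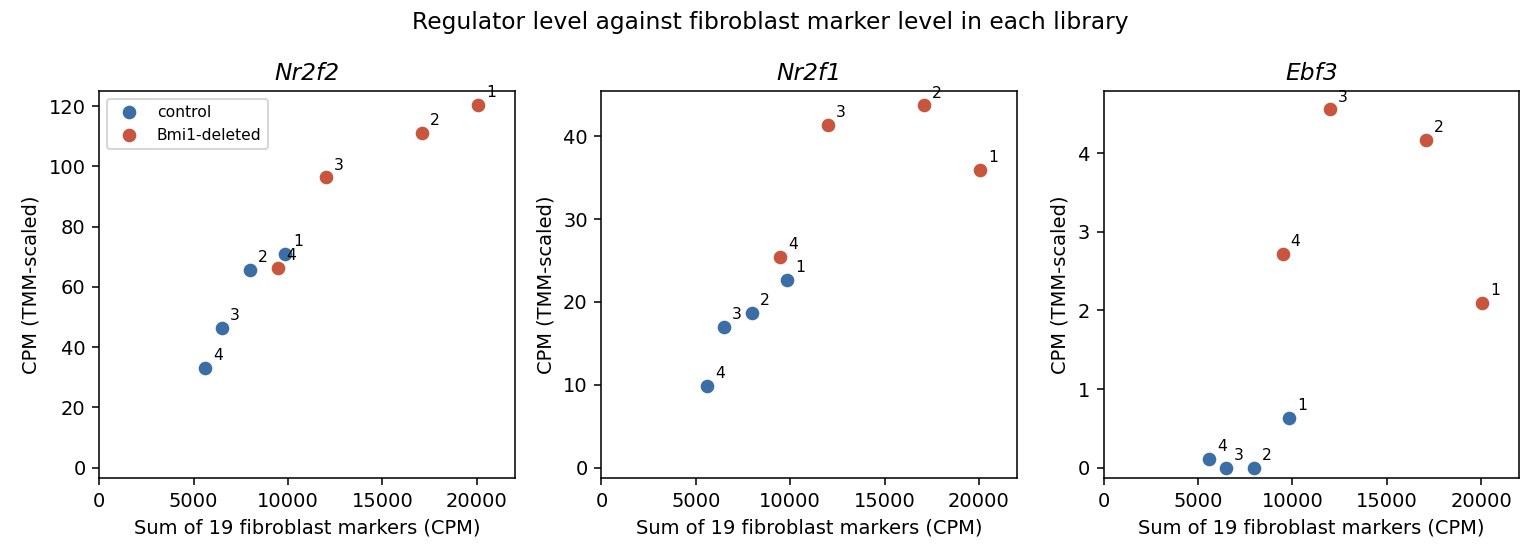
Level in CPM of Nr2f2, Nr2f1 and Ebf3 (vertical axes) against the summed level of 19 fibroblast markers in CPM (horizontal axes), with 1 numbered point per library, control in blue and Bmi1-deleted in red. Nr2f2 has the same library order as the markers, whereas Ebf3 is at 0.638 CPM or lower in all control libraries and at 2.10 CPM or higher in all Bmi1-deleted ones.

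**Figure D5:**
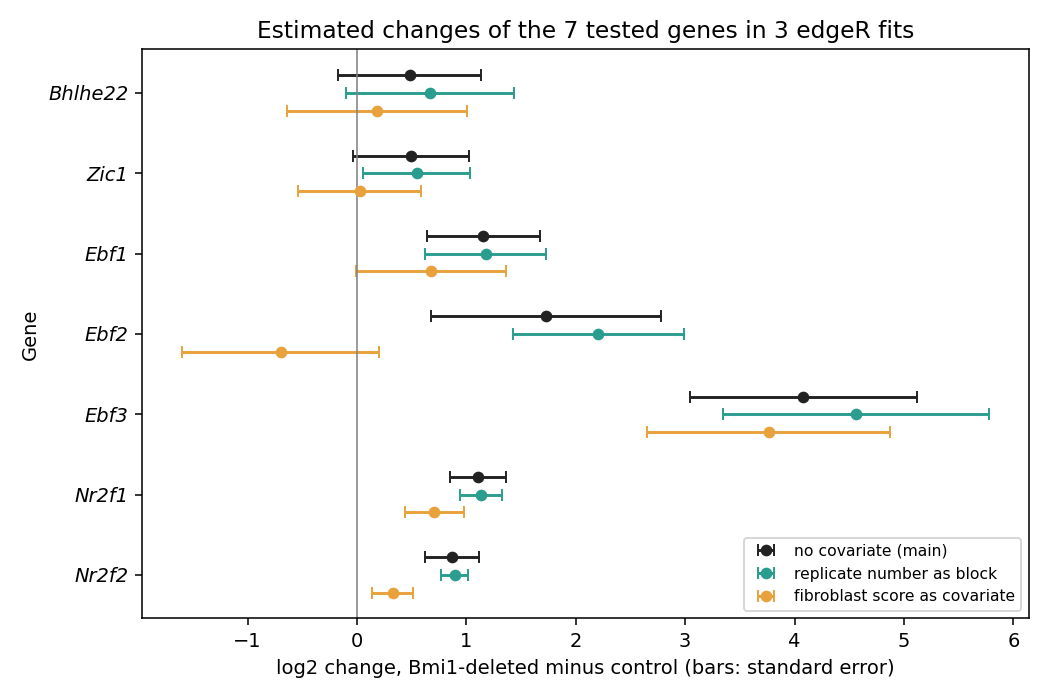
Estimated log2 change, Bmi1-deleted minus control, with its standard error for the 7 tested genes (rows) in 3 edgeR fits, without covariate, with the replicate number as a block and with the fibroblast score as a covariate. Ebf3 lies near 4 in all 3 fits, Nr2f2 falls from 0.87 to 0.32 with the fibroblast score, and Ebf2 changes sign in the fit with the score and no block.

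The partners and relatives of these factors did not pass the test in either direction. Of 14 bHLH partners and inhibitors (the E proteins, Id proteins and the Hes and Hey repressors of the Notch pathway) 13 were tested, 0 rose and 0 fell, and 1 was higher (Heyl) and 1 lower (Tcf4, an E protein gene) at an unadjusted p under 0.05 (edgeR). Tcf4 stood at 177.9 ± 15.2 CPM in the controls and 135.2 ± 24.1 after deletion (SD, n = 4; log2 change −0.40, SE 0.14, edgeR adjusted p = 0.448). Heyl stood at 2.43 ± 1.14 CPM in the controls and 5.33 ± 1.32 after deletion, Hes7 at 3.19 ± 1.51 and 1.45 ± 0.537, and Hes6 at 4.14 ± 1.14 and 2.28 ± 0.700 (SD, n = 4).

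Of 30 relatives of the members by family, 6 were tested, 0 rose and 0 fell (edgeR, also 0 and 0 at an unadjusted p under 0.05). The fourth Ebf gene, Ebf4, stood at 5.32 ± 1.56 CPM in the controls and 7.49 ± 2.23 after deletion, the COUP-TF relative Nr2f6 at 16.3 ± 3.76 and 18.97 ± 2.298, and the tendon factor Scx at 4.66 ± 1.90 and 2.69 ± 1.91 (SD, n = 4). Of 12 cofactors 11 were tested, 0 rose and 0 fell (0 higher and 2 lower at an unadjusted p under 0.05), and with the block 1 fell, Bcl11a, a zinc finger gene whose protein binds COUP-TF factors. It stood at 44.0 ± 10.3 CPM in the controls and 27.9 ± 10.5 after deletion (log2 change −0.66, SE 0.28, edgeR adjusted p = 0.575, 0.0473 with the block). The call was lost in all 4 block fits that left out 1 pair, and the log2 change was −0.15 with the fibroblast score. Its paralog Bcl11b had a log2 change of −0.55 and the Ebf cofactor Zfp521 of −0.56.

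Of 12 neuronal genes that proneural factors turn on, 6 were tested, 0 rose and 0 fell (edgeR, also 0 and 0 at an unadjusted p under 0.05). The Notch ligand gene Dll1 stood at 9.30 ± 2.03 CPM in the controls and 13.3 ± 6.78 after deletion, Rnd2, a small GTPase gene of migrating neurons, at 9.80 ± 3.92 and 14.1 ± 5.60, and the RNA-binding protein gene Elavl3 at 2.61 ± 1.54 and 3.66 ± 3.33 (SD, n = 4). The most abundant of the tested, the stress and cell cycle gene Gadd45g, stood at 25.9 ± 5.84 and 32.6 ± 6.57 CPM.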

How the data were processed

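RNA-seq tables of 8 libraries were used. The authors deposited estimated counts per gene, as whole numbers, and log2 values of TPM plus 1; Salmon 1.2.1 and mm10 are named per the submitters' processing notes, and the annotation, strand setting and rounding were not given in the sources used here. Symbols and positions came from GENCODE M21, which gave 54096 of 54418 identifiers a symbol. Low genes were removed by filterByExpr (edgeR 4.0.16, R 4.3.3), libraries scaled by TMM and fitted over 16011 genes with the robust quasi-likelihood F test, two-sided, with Benjamini-Hochberg adjustment and a threshold of 0.05. The SE of a log2 change came from its F statistic. DESeq2 1.42.0, limma 3.58.1, other scalings, filters and covariates were alternatives. Libraries have no molecular identifiers that the sources mention, so floors cover counting error only.

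Replicate numbers were checked as a pairing. After centring by genotype, same-numbered libraries correlated across genes at 0.14 to 0.224, all above 0.1, and were treated as pairs; libraries with other numbers ranged from −0.254 to 0.243, so replicates 1 and 2 also resembled each other, as did 3 and 4. The fit without the block stayed the main one, with blocked values beside the results they change. The 28 genes, the marker and partner lists and the tests were chosen with earlier results of these data known. Every tested member is named with its values and every other member with its counts. From the partner lists the text names those that passed or the 3 with the largest change and a mean of at least 1 CPM. A few others are named after their values were seen.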

Additional observations from a re-analysis of the deposited data

How the results depend on the processing

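Without the block, 0 of the 28 genes were called higher. This count also held with RLE and upper-quartile scaling, with 2 other filters, in limma-voom and with the fibroblast score. It held too with each of the 8 libraries left out (0 to 0). Limma on the deposited log2 TPM also gave 0, but it called 0 genes higher and 0 lower among all genes. Replicates 3 and 4 alone gave 0 as well. Cdkn2a did not pass in either of these last fits (limma adjusted p = 0.110, edgeR adjusted p = 0.111). They therefore cannot show whether a member changed. The count of members called higher became 3 without a filter on low counts, 3 in DESeq2, 2 with the replicate block and 1 in replicates 1 and 2 alone. With the block it was 1 to 3 when 1 pair was left out. It was 0 with the block and the fibroblast score together, a fit added after seeing the data (Nr2f2 1.08, SE 0.30, and Nr2f1 1.51, SE 0.48). Cdkn2a was not called in that fit either (edgeR adjusted p = 0.9999), but with an SE of 18104 it cannot gauge the fit for other genes. No alternative called a member lower. Among the partner lists the block gave 1 lower gene, Bcl11a, and changed no other call there; the count was 0 in each of the 4 block fits without 1 pair and with the block and fibroblast score together. The 2 members whose groups did not overlap became 1 in deposited TPM, and 2 to 3 with a library left out. Bhlhe22 reversed to −0.051 in replicates 1 and 2 alone, and Ebf2 reversed to −0.70 with the fibroblast score, but was 6.81 (SE 3.25) with score and block together. In replicates 3 and 4 alone Ebf2 had too few counts for a value. The log2 change without each library in turn ran from 0.69 to 1.03 for Nr2f2, 0.91 to 1.28 for Nr2f1 and 3.68 to 6.10 for Ebf3, and none was called in these fits. On deposited log2 TPM the median change of all genes was −0.14. Depth limits the 21 untested genes, whose counts reached 36 in a library at most.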
